A study of Mus musculus with 8 samples.

Results

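Transcripts of 39 autophagy and mitophagy genes were examined among the 24341 genes of a mouse ventricle RNA-seq table. A gene was included when its symbol was Atg followed by a digit (18 genes) or was 1 of 21 named symbols for the ATG8 proteins, cargo receptors, initiation kinases, Beclin 1 and WIPI proteins and mitophagy factors. The rule uses symbols alone and no measured value, but it was chosen with earlier results of these data known. The RNA came from ventricular lysates of male mice aged 12 weeks, 4 weeks after tamoxifen given in chow. All mice were homozygous for floxed Med13 and Med13l (Med13/13L fl/fl), and all received tamoxifen. The mice of the 4 cre_positive libraries carried a cardiomyocyte-specific Cre recombinase, and those of the 4 cre_negative libraries carried the floxed alleles without Cre. MED13 and MED13L are paralogs that tether the CDK8 kinase module to Mediator, a coactivator of RNA polymerase II. No source used here names the Cre line, and neither group carried Cre without the floxed alleles, so deletion of the targets and the presence of an active Cre cannot be told apart. Libraries are named by group and by the number in their titles.

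Macroautophagy encloses cytoplasm in a double membrane and delivers it to the lysosome. A kinase complex around ULK1 starts the process, a lipid kinase complex around Beclin 1 marks the forming membrane, and ubiquitin-like conjugation enzymes couple the small ATG8 proteins (the LC3 and GABARAP families) to its lipid. Cargo receptors such as p62 bind ubiquitin on one side and ATG8 on the other, and in mitophagy the kinase PINK1, the ubiquitin ligase Parkin and receptors such as BNIP3 mark mitochondria, the most abundant organelle of the cardiomyocyte. Transcript level does not measure autophagic flux, which depends on protein modification and turnover.

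Levels are in FPKM, which divides a gene's fragments by transcript length and by each 1e+06 mapped fragments, a unit that is relative to each library's total. Groups were compared with limma on log2(FPKM + 1), and a gene was called at a Benjamini-Hochberg adjusted p under 0.05 over the 11688 genes whose mean was 1 FPKM or more. P-values measure the spread between these samples, since the labels do not tell whether each library is a separate mouse. The names of the libraries cre_negative 1 and 2 differ only by a final suffix. The SD over genes of the log2 difference between these 2 libraries was 0.355, the smallest of the cre_negative pairs (0.355 to 0.462). Pairs of cre_positive libraries lay at 0.277 to 0.390. These values do not tell whether the 2 libraries come from 1 mouse, and they were kept as 2. By estimate the libraries held 4.49 to 23.6 times 1e+06 fragments. The ribosomal precursor Rn45s split the libraries into 5 at 396 to 1053 FPKM (cre_negative 1, 3 and 4, cre_positive 1 and 2) and 3 at 10.3 to 16.0 FPKM (cre_negative 2, cre_positive 3 and 4), a split found in the data that no label names. By estimate the 3 libraries with low Rn45s were also the deepest, at 15.3 to 23.6 times 1e+06 fragments against 4.49 to 8.67. The Rn45s split and depth therefore cannot be told apart. Med13 fell from 12.0 ± 2.23 to 8.13 ± 0.554 FPKM and Med13l from 4.92 ± 0.814 to 2.52 ± 0.113 FPKM (SD, n = 4 each). The limma call of Med13, but not that of Med13l, was lost when libraries were scaled to a fixed sum (adjusted p 0.185). Summed over 10 cardiomyocyte markers, levels were 49266 to 53236 FPKM in cre_negative against 18009 to 19024 FPKM in cre_positive libraries, and the markers were abundant in every library.

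A small group of autophagy and mitophagy genes differed between cre_positive and cre_negative ventricle. Of 38 tested members, 6 rose (Gabarapl1, Atg13, Becn1, Gabarapl2, Sqstm1 and Ambra1) and 3 fell (Optn, Pink1 and Atg4d) by limma. These 9 are 23.7% of the members tested, beside 39.2% of all tested genes that were called, 19.7% higher and 19.4% lower. In bulk lysate, fewer cells of a type and less RNA per cell cannot be told apart. The median log2 change was 0.08 for the members and -0.01 for all genes tested, and 21 members had a positive and 17 a negative value. The absolute log2 change was 0.5 or more for 3 members, or 7.89%, against 22.5% of all genes tested. An absolute log2 change of 1 was reached by no member and by 6.32% of all genes tested. Values of the groups did not overlap for 6 members that were higher and 3 that were lower, also 23.7%, beside 38.0% of all genes tested. The 2 sets of 9 are not the same, since Atg4c did not overlap but was not called, and Atg4d was called but overlapped. Gabarapl1 had the largest change, Sqstm1 was the most abundant member called higher, and Pink1 was the most abundant called lower.

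**Figure D1:**
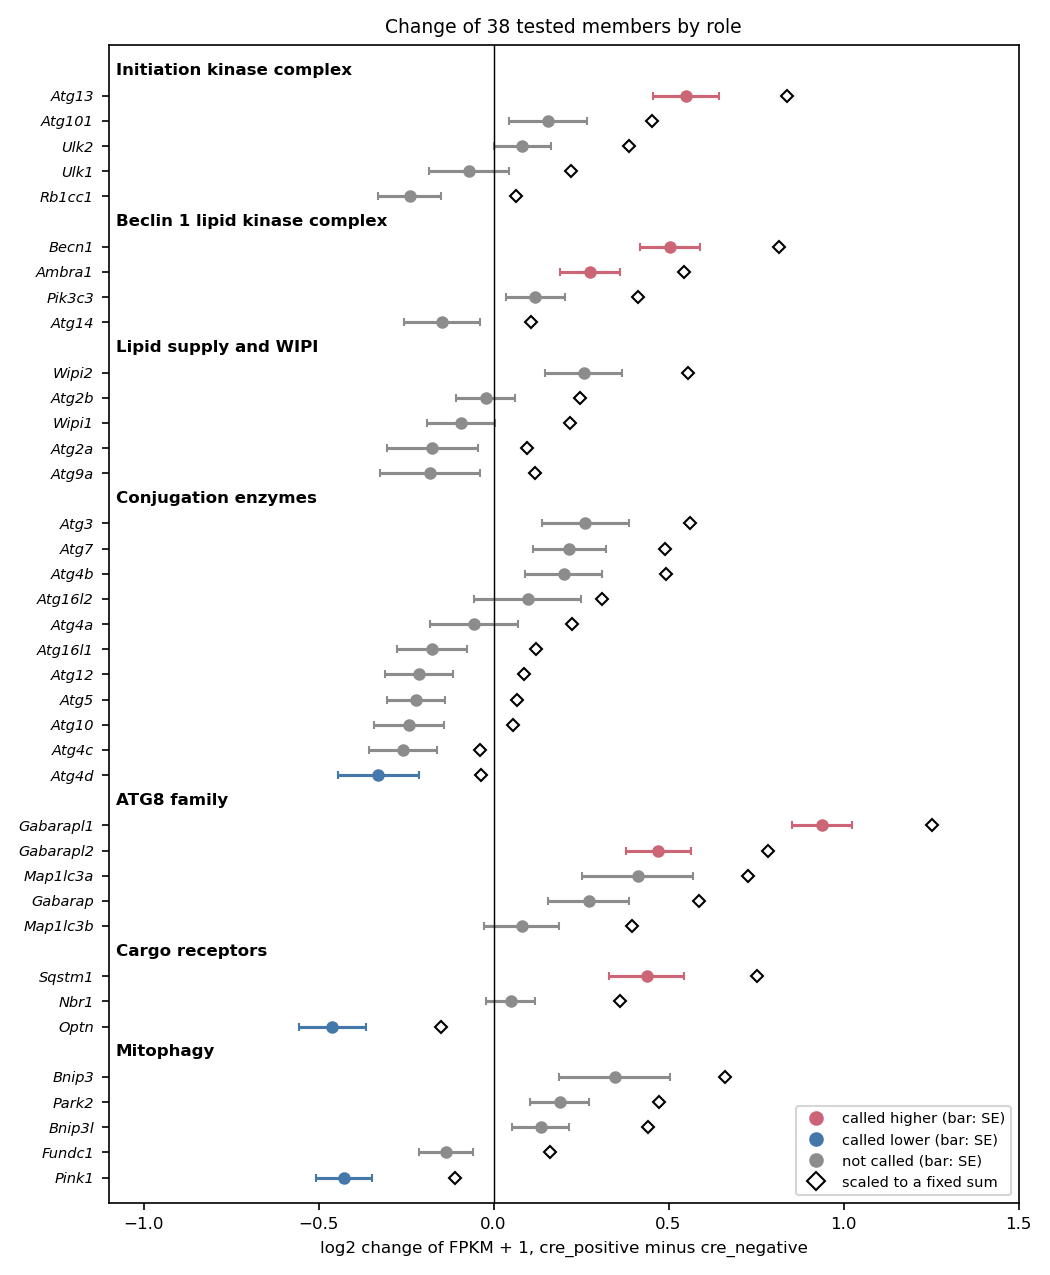
Log2 change of FPKM + 1 (cre_positive minus cre_negative) for the 38 tested members, ordered within 7 role groups. Filled points with SE bars are values on the deposited scale, coloured by call, and open diamonds are values after scaling each library to a fixed sum. Gabarapl1 lies farthest to the right at 0.94, all 5 ATG8 genes lie right of 0, and every diamond lies to the right of its point.

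The counts depended on how libraries were scaled. The FPKM of all genes summed to 545102 to 612162 in cre_negative and to 460601 to 478667 in cre_positive libraries. Each library was therefore also scaled so that all genes apart from small RNAs and ribosomal protein genes gave the same total, called the fixed-sum scale here. The median log2 change of all genes then moved from -0.01 to 0.26 and that of the members from 0.08 to 0.37. On that scale 21 members were called higher and 0 lower by limma, with 0 lower also at an unadjusted p under 0.05, while 46.7% of all genes tested were called higher and 8.65% lower. The calls of Gabarapl1, Atg13, Becn1, Gabarapl2, Sqstm1 and Ambra1 stood on both scales, with fixed-sum log2 changes of 1.25, 0.84, 0.81, 0.78, 0.75 and 0.54. Those of Optn, Pink1 and Atg4d did not, and their values on both scales are given with each gene. Of the 17 negative log2 changes of members, 13 turned positive on the fixed-sum scale, and those of Optn, Pink1, Atg4d and Atg4c stayed negative. Of the 13, Atg2b alone was called there (log2 change 0.25, limma adjusted p 0.0403). Ratios between members of the same library do not depend on this choice and are given for that reason. The ratios were chosen with the values known and carry no test.

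Sequence just before the start site is shown for the 3 members singled out by size or abundance. The sequences are from RefSeq (GRCm38.p6), 5′ to 3′ on the strand of the gene, and end at the base before the start site. Capitals mark each GC box, the letters GGGCGG or CCGCCC.
Gabarapl1, chr6:129532942-129533191, plus strand: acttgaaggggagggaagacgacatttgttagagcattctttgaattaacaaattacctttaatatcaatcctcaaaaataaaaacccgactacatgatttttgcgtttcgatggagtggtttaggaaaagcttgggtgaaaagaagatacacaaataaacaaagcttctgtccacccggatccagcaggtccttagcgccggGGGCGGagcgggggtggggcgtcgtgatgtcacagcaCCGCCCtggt
Sqstm1, chr11:50210821-50211070, minus strand: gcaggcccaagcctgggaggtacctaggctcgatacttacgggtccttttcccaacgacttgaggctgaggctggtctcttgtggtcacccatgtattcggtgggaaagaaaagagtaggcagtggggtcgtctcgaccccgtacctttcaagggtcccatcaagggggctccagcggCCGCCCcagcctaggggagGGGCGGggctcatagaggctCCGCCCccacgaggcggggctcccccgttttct
Pink1, chr4:138326297-138326546, minus strand: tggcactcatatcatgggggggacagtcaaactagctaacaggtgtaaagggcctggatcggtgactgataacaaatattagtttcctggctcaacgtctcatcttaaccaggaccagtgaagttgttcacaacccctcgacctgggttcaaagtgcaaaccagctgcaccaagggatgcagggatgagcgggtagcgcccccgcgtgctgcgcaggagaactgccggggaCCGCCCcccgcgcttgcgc

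The Gabarapl1 stretch holds 2 GC boxes, which begin 47 and 10 bases before the start site. In Sqstm1 there are 3, the farthest at 72 and the nearest at 33 bases before it, and in Pink1 there is 1 at 19 bases. For the motif counts, windows of 250 bases before to 50 bases after each start were searched on both strands. RefSeq windows were found for 31 of the 39 members, 34 windows in all. A GC box occurred in 21 of the 34 member windows (61.8%), beside 35.7% of 32851 windows of all genes. The windows of all genes were not limited to genes expressed in ventricle, whereas 38 of the 39 members reached a mean of 1 FPKM. Whether the motif shares differ from those of other expressed genes was not tested. The letters CACGTG, the core recognised by TFEB and related factors, occurred in 5 member windows (14.7%), those of Atg14, Atg3, Atg5, Atg7 and Bnip3, beside 7.15% of all windows. None of these 5 genes was called on the deposited scale. On the fixed-sum scale Atg3, Atg7 and Bnip3 were called higher (limma adjusted p 0.00427, 0.00182 and 0.00272), where 46.7% of all genes tested were called higher. The 3 stretches printed above do not hold these letters. The longer TCACGTGA, which contains CACGTG, was found in Atg3 alone (0.974% of all windows). The FoxO motif GTAAACA was in 0 member windows and 3.65% of all windows, and TGATGCAA, a motif of ATF4 with C/EBP partners, was in 0 and 0.895%. A match describes letters and not a bound factor.

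Of the 7 role groups, the ATG8 family had the highest summed FPKM and held Gabarapl1, the member with the largest change. These proteins are coupled to the lipid of the autophagosome membrane, where they bind cargo receptors. All 5 genes had a positive log2 change on both scales, though Map1lc3b and Gabarap were at -0.19 and -0.01 among the 3 libraries with low Rn45s. By limma 2 of them were called higher and 0 lower (4 and 0 at an unadjusted p under 0.05), and the median was 0.41. Over all genes tested 19.7% were called higher and 19.4% lower. On the fixed-sum scale all 5 were called higher, with a median of 0.73, where 46.7% of all genes tested were called higher. Map1lc3a, Map1lc3b and Gabarap, not called on the deposited scale, stood there at 0.73, 0.40 and 0.59 (limma adjusted p 0.00162, 0.00388 and 5.15e-04). Gabarapl1 (chr6:129532184-129542331, mm10) stood at 76.9, 77.8, 68.8 and 79.9 FPKM in the cre_negative libraries 1 to 4, against 155, 159, 137 and 134 FPKM in the cre_positive libraries. The lowest cre_positive library was well above the highest cre_negative library, and the 4 cre_negative values lay close together. The mean went from 75.9 ± 4.87 to 146 ± 12.7 FPKM (SD, n = 4 each), a fold of 1.93, with a log2 change of 0.94 ± 0.0844 (SE; limma adjusted p = 1.56e-05). By an exact permutation test over 70 assignments (two-sided) p was 0.0286, the smallest possible value. Gabarapl1 was called in all 18 alternative settings, and its log2 change was 1.06 among the 5 libraries with high Rn45s and 0.79 among the 3 with low Rn45s. Its estimated fragment number was at least 691 in each library. A lncRNA, 1700101I11Rik, overlaps its locus in RefSeq, and since no source used here states whether counting used the strand, reads of the 2 cannot be told apart.

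Gabarapl2 (chr8:111940703-111952915), also known as GATE-16, was at 67.1, 71.6, 58.9 and 57.8 FPKM in cre_negative against 81.4, 85.4, 97.4 and 90.7 FPKM in cre_positive libraries. The groups did not overlap. It rose from 63.8 ± 6.62 to 88.7 ± 6.95 FPKM (SD, n = 4 each), a log2 change of 0.47 ± 0.0921 (SE; limma adjusted p = 0.0024), and was called in all 18 alternative settings.

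Map1lc3a, which encodes LC3A, was the most abundant gene of the family and overlapped between groups. It stood at 232, 312, 192 and 203 FPKM in cre_negative against 253, 294, 331 and 362 FPKM in cre_positive libraries. Only the cre_negative 2 library, which belongs to the set with low Rn45s, reached into the cre_positive range. The log2 change was 0.41 ± 0.16 (SE; limma adjusted p = 0.0631). Without cre_negative 2 the log2 change was 0.56 and the adjusted p 0.00646, without cre_positive 1 they were 0.51 and 0.035, and with Rn45s set as a term 0.30 and 0.026. Within the Rn45s sets neither value was called, at 0.38 (adjusted p 0.0524) among the high and 0.15 (adjusted p 0.27) among the low libraries. Map1lc3b, which encodes LC3B, the form most used as a marker of autophagosomes, stood at 135, 171, 118 and 147 FPKM in cre_negative against 142, 157, 152 and 148 FPKM in cre_positive libraries. All 4 cre_positive values lay within the cre_negative range. Its log2 change was 0.08 ± 0.11 (SE; limma adjusted p = 0.59), and it was -0.01 without cre_negative 3. Gabarap, the founding member of the GABARAP branch, was at 192 ± 31.5 and 230 ± 12.1 FPKM (SD, n = 4 each), with a log2 change of 0.27 and a limma adjusted p of 0.0871. Without cre_negative 2 the log2 change of Gabarap was 0.36 and the adjusted p 0.0219. With all 8 libraries, quantile normalization called Map1lc3a (log2 change 0.62, limma adjusted p 0.00351) and Gabarap (0.44, 0.00262) higher. Array weights called both as well (limma adjusted p 0.0045 and 0.0277), but neither setting called Map1lc3b.

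**Figure D2:**
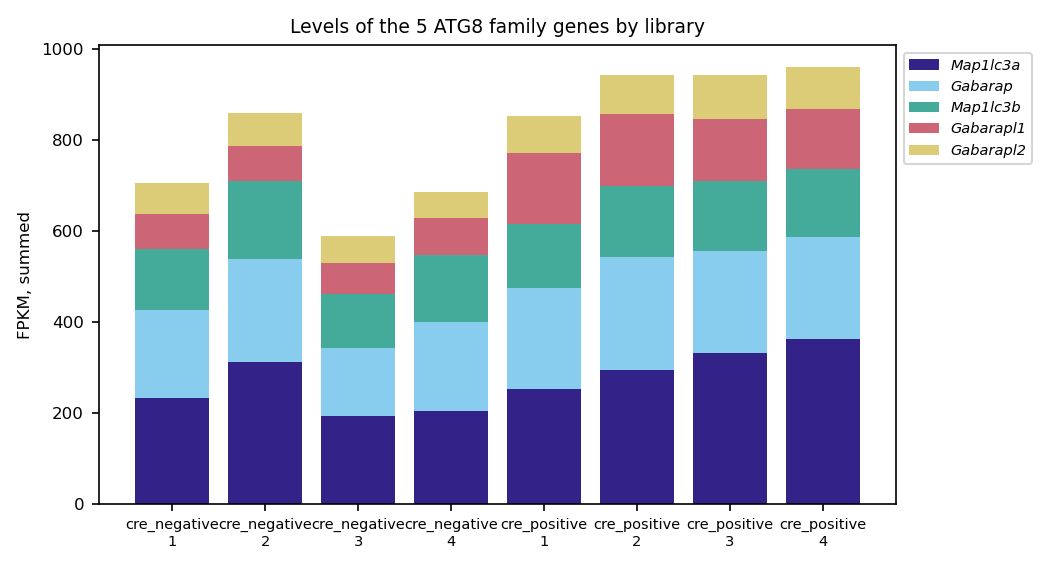
Summed FPKM of the 5 ATG8 family genes in each of the 8 libraries, stacked by gene. The cre_positive bars reach 852 to 960 FPKM and the cre_negative bars 588 to 859 FPKM, and the Gabarapl1 segment is thicker in each cre_positive bar than in any cre_negative bar.

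Gabarapl1 made up more of the family in cre_positive than in cre_negative libraries. Its share of the summed FPKM of the 5 genes was 10.9%, 9.05%, 11.7% and 11.7% in cre_negative and 18.2%, 16.9%, 14.6% and 13.9% in cre_positive libraries. The shares of the 2 groups did not overlap. The share of Map1lc3b went the other way, from 20.1% ± 0.968 to 16.2% ± 0.584 (SD, n = 4 each), again with no overlap. Map1lc3a held 32.9% ± 2.73 and 33.4% ± 3.68, Gabarap 27.1% ± 1.39 and 24.9% ± 1.40, and Gabarapl2 9.07% ± 0.826 and 9.59% ± 0.533, all with overlap. Within libraries, Gabarapl1 stood at 0.401 ± 0.0468 of Gabarap in cre_negative and at 0.637 ± 0.0486 in cre_positive libraries. The order of mean levels in cre_negative ventricle was Map1lc3a, Gabarap, Map1lc3b, Gabarapl1 and Gabarapl2. That order held within each of the 4 cre_negative libraries, although across libraries the ranges of neighbours overlapped, except those of Map1lc3b and Gabarapl1. In cre_positive ventricle Gabarapl1 lay next to Map1lc3b, at 146 ± 12.7 and 150 ± 6.39 FPKM, which did not differ beyond their spread.

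**Figure D3:**
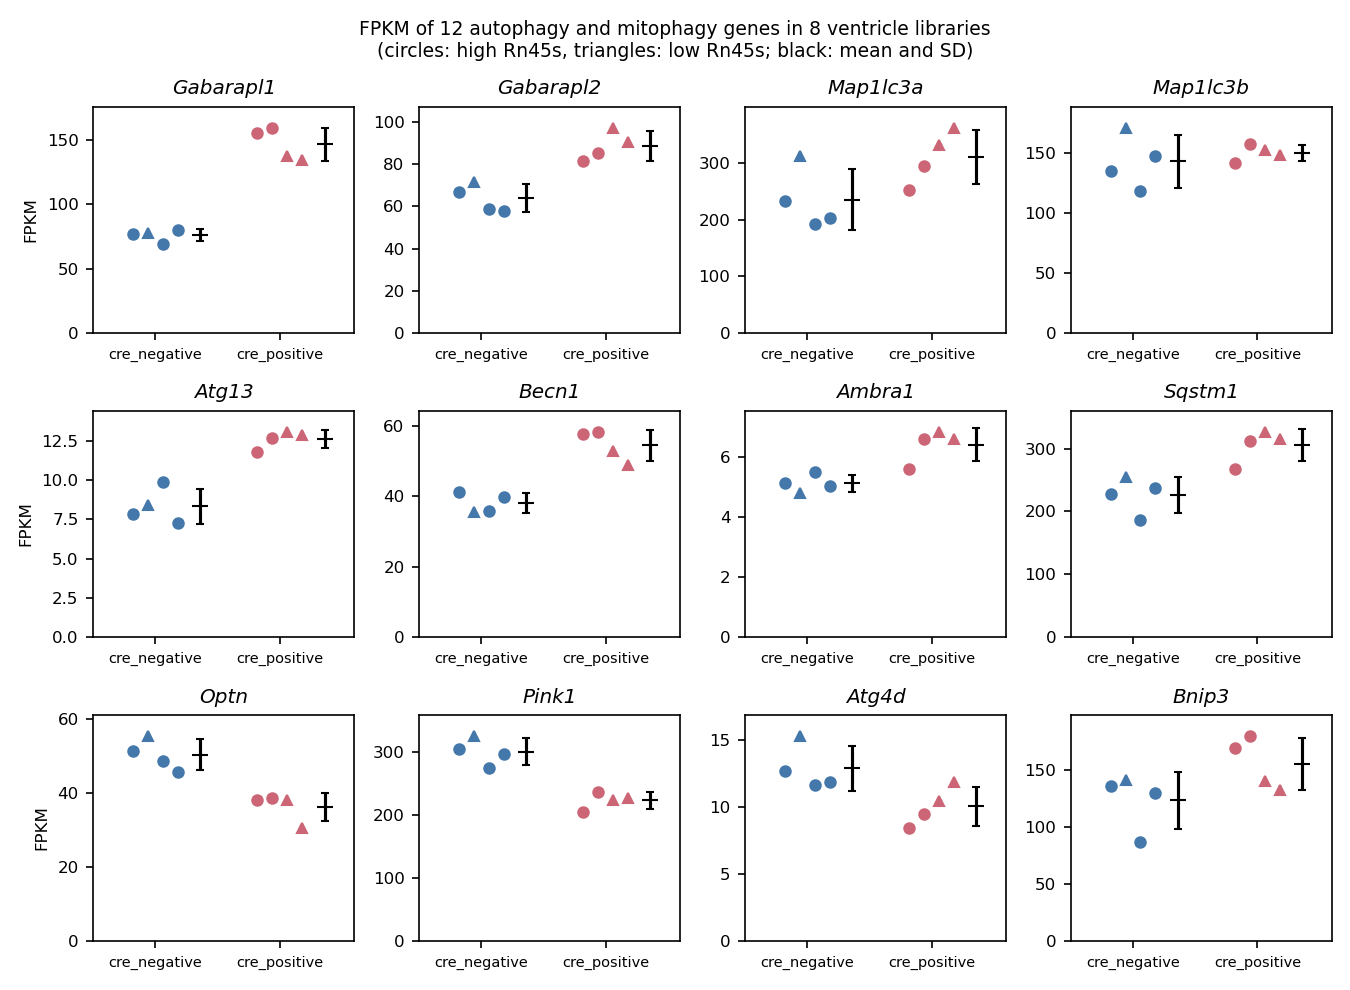
FPKM of 12 members in each library, with a separate axis from 0 for each gene. Circles are libraries with high Rn45s, triangles those with low Rn45s, and black marks give mean and SD (n = 4 per group). Gabarapl1, Gabarapl2, Atg13, Becn1, Ambra1 and Sqstm1 lie higher and Optn and Pink1 lower in every cre_positive library, while Map1lc3a, Map1lc3b, Atg4d and Bnip3 overlap.

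Of the initiation kinase complex, which receives signals from mTORC1 and AMPK, Atg13 alone was called on the deposited scale. On the fixed-sum scale Ulk2 and Atg101 were called higher as well (log2 change 0.39 and 0.45, limma adjusted p 0.00364 and 0.00527). Atg13 encodes the subunit that links the kinases to their scaffold. Atg13 (chr2:91674612-91710592) was at 7.84, 8.44, 9.87 and 7.24 FPKM in cre_negative against 11.8, 12.7, 13.1 and 12.9 FPKM in cre_positive libraries. Every cre_positive library lay above every cre_negative library. The rise from 8.35 ± 1.12 to 12.6 ± 0.562 FPKM (SD, n = 4 each) was a log2 change of 0.55 ± 0.0949 (SE; limma adjusted p = 0.00113), and it was called in all 18 alternative settings. Ulk1, the best known of the kinases, stood at 12.1, 9.46, 14.2 and 12.1 FPKM in cre_negative against 10.6, 10.6, 11.3 and 12.6 FPKM in cre_positive libraries. The ranges overlapped throughout, with a log2 change of -0.07 ± 0.11 (SE; limma adjusted p = 0.666). The sign of the Ulk1 value was not stable. It was -0.25 among high-Rn45s and 0.31 among low-Rn45s libraries, 0.22 after scaling to a fixed sum and 0.01 without cre_negative 3.

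The kinase paralog Ulk2 was more abundant than Ulk1, at 21.7 ± 1.01 and 23.1 ± 2.06 FPKM (SD, n = 4 each; log2 change 0.08). Rb1cc1, which encodes the scaffold FIP200 and was the most abundant gene of the complex, was at 27.7, 22.2, 26.7 and 26.6 FPKM in cre_negative against 23.4, 22.6, 20.4 and 20.3 FPKM in cre_positive libraries. Only cre_negative 2 overlapped with the cre_positive range. Its log2 change was -0.24 ± 0.0896 (SE; limma adjusted p = 0.0562), which became -0.31 and 0.0121 without cre_negative 2, -0.28 and 0.0474 without cre_positive 1, and 0.06 and 0.604 on the fixed-sum scale. The ratio of Atg13 to Rb1cc1 within libraries was 0.272 to 0.381 in cre_negative and 0.505 to 0.643 in cre_positive libraries, with no overlap. Atg101, which stabilises ATG13, was at 13.1 ± 0.551 and 14.9 ± 2.39 FPKM (SD, n = 4 each; log2 change 0.16). Without cre_positive 1, its lowest library, the log2 change of Atg101 was 0.27 and the limma adjusted p 0.0258.

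In the Beclin 1 complex, which makes the lipid signal of the forming membrane, 2 of 4 genes rose and 0 fell by limma (2 and 0 at an unadjusted p under 0.05). Over all genes tested 19.7% were called higher and 19.4% lower. Becn1 (chr11:101279203-101302267), which encodes Beclin 1, stood at 41.1, 35.5, 35.8 and 39.8 FPKM in cre_negative against 57.6, 58.4, 52.8 and 48.9 FPKM in cre_positive libraries. The groups were clearly apart. The mean went from 38.1 ± 2.82 to 54.4 ± 4.43 FPKM (SD, n = 4 each), a log2 change of 0.50 ± 0.0847 (SE; limma adjusted p = 9.52e-04), and all 18 alternative settings called it. The Becn1 locus of the table also spans Cntd1, so its value may include reads of that gene.

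Neither core partner of Beclin 1 passed the test on the deposited scale. Pik3c3, the catalytic lipid kinase VPS34, was at 11.5 ± 0.774 and 12.6 ± 1.01 FPKM, and Atg14, which directs the complex to autophagosomes, at 4.22 ± 0.387 and 3.73 ± 0.568 FPKM (SD, n = 4 each). Their log2 changes were 0.12 and -0.15. On the fixed-sum scale Pik3c3 was called higher (log2 change 0.41, limma adjusted p 0.00124). The ratio of Becn1 to Pik3c3 within libraries was 2.89 to 3.56 in cre_negative and 3.84 to 5.14 in cre_positive libraries, and that of Becn1 to Atg14 was 8.14 to 9.83 and 13.0 to 16.0. Neither ratio overlapped between groups. Ambra1, a Beclin 1 partner that also acts in ubiquitin ligation, was at 5.15, 4.82, 5.51 and 5.04 FPKM in cre_negative against 5.61, 6.61, 6.86 and 6.63 FPKM in cre_positive libraries. The 2 groups almost touched at cre_negative 3 and cre_positive 1. It rose from 5.13 ± 0.288 to 6.43 ± 0.558 FPKM (SD, n = 4 each), a log2 change of 0.27 ± 0.0859 (SE; limma adjusted p = 0.0273). Among the high-Rn45s libraries its value was 0.19 and among the low 0.41. It was called in 9 of 18 alternative settings, and leaving out any 1 library except cre_negative 3 and cre_positive 1 took the call away (adjusted p 0.059 to 0.0883).

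None of the genes of lipid supply and phosphoinositide sensing was called on the deposited scale in the comparison without covariates. WIPI proteins read the lipid signal, ATG2 proteins transfer lipid and ATG9 proteins scramble it. Of 5 tested genes 0 were called higher and 0 lower by limma (1 and 0 at an unadjusted p under 0.05), with a median of -0.09, or 0.22 on the fixed-sum scale. Wipi1 was the most abundant, at 59.4, 53.3, 61.2 and 46.7 FPKM in cre_negative against 46.7, 50.4, 55.6 and 53.2 FPKM in cre_positive libraries. The ranges overlapped almost fully, with a log2 change of -0.09 ± 0.098 (SE; limma adjusted p = 0.489). Wipi2, which recruits the conjugation machinery, was at 14.1 ± 1.48 and 17.1 ± 2.31 FPKM (SD, n = 4 each; log2 change 0.26, limma adjusted p 0.0887). Without cre_positive 1 the log2 change of Wipi2 was 0.34 and the limma adjusted p 0.0251. Atg2a, Atg2b and Atg9a had log2 changes of -0.18, -0.02 and -0.18. With the Rn45s term Atg2a (-0.26, limma adjusted p 0.0317) and Atg9a (-0.28, 0.033) were called lower. On the fixed-sum scale Wipi2 and Atg2b were called higher (log2 change 0.56 and 0.25, limma adjusted p 0.00125 and 0.0403). Atg9b, whose locus overlaps Nos3, was below the level needed for a test, at 0.864 ± 0.416 and 0.609 ± 0.14 FPKM (SD, n = 4 each).

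Conjugation enzymes attach ATG8 proteins to lipid and, in the case of the ATG4 proteases, trim and release them. Of 11 genes, 0 were called higher and 1 lower by limma (0 and 4 at an unadjusted p under 0.05), 7 had a negative log2 change and the median was -0.18, or 0.12 on the fixed-sum scale. Atg4d (chr9:21265285-21287969), an ATG4 protease, stood at 12.7, 15.3, 11.6 and 11.9 FPKM in cre_negative against 8.47, 9.5, 10.4 and 11.9 FPKM in cre_positive libraries. The highest cre_positive library reached the cre_negative range. The means were 12.9 ± 1.70 and 10.1 ± 1.45 FPKM (SD, n = 4 each). It fell by 0.33 ± 0.12 on the log2 scale (SE; limma adjusted p = 0.0453), but the exact permutation p was 0.0857 and the call stood in 8 of 18 alternative settings. It was lost on the fixed-sum scale (log2 change -0.04, adjusted p 0.791) and without any 1 library other than cre_negative 3 and cre_positive 4 (adjusted p 0.0598 to 0.11). The locus of Atg4d in the table also spans Kri1.

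Atg12, the ubiquitin-like protein joined to ATG5, was the most abundant conjugation gene, at 21.4, 17.1, 20.5 and 17.7 FPKM in cre_negative against 17.9, 17.3, 15.5 and 14.8 FPKM in cre_positive libraries. The groups overlapped, and the log2 change was -0.21 ± 0.0974 (SE; limma adjusted p = 0.111). Its partner Atg5 had a log2 change of -0.22 (adjusted p 0.0538), the E2-like Atg10 one of -0.24 (adjusted p 0.0804), and Atg16l1, which completes the ligase, one of -0.18 (adjusted p 0.193). Without cre_negative 4 the call was gained for Atg5 (log2 change -0.26, adjusted p 0.0478), and for Atg10 it was gained without cre_negative 3 (-0.29, 0.0453) and without cre_positive 1 (-0.30, 0.0406). With the Rn45s term Atg16l1 was called lower (log2 change -0.23, limma adjusted p 0.0295). Atg4c, a weakly expressed protease of the ATG4 family, was lower in every cre_positive library, at 2.46 to 2.8 FPKM in cre_negative against 1.79 to 2.3 FPKM in cre_positive libraries, with a limma adjusted p of 0.0554. Without cre_positive 1 the log2 change of Atg4c was -0.31 and the adjusted p 0.0321. Its estimated fragment number was only 33 to 152 per library.

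On the positive side, the E2-like Atg3 had a log2 change of 0.26 (adjusted p 0.12), the E1-like Atg7 one of 0.22 (adjusted p 0.129) and Atg4b, the main ATG4 protease, one of 0.20 (adjusted p 0.179), none of them called by limma on the deposited scale. On the fixed-sum scale all 3 were called higher, at 0.56, 0.49 and 0.49 (limma adjusted p 0.00427, 0.00182 and 0.00324). With the Rn45s term Atg3 was called (log2 change 0.34, limma adjusted p 0.0154). Atg7 was called without cre_negative 2 (log2 change 0.28, adjusted p 0.0477). Atg16l2 was at 1.95 ± 0.48 and 2.15 ± 0.459 FPKM (SD, n = 4 each). The row named Atg4a sits in the table at chr3:103575282-103646068, where RefSeq has Syt6 and the pseudogene Atg4a-ps, while RefSeq places Atg4a on chromosome X. Its 7.54 ± 0.89 and 7.27 ± 1.37 FPKM (SD, n = 4 each) are therefore uncertain as a measure of Atg4a.

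Of the 3 cargo receptors 1 rose and 1 fell, beside 19.7% of all genes tested called higher and 19.4% called lower. Sqstm1 (chr11:50200152-50210820), which encodes p62, was the most abundant of them and stood at 227, 254, 187 and 237 FPKM in cre_negative against 268, 312, 327 and 316 FPKM in cre_positive libraries. No value overlapped, although cre_negative 2 and cre_positive 1 were close. It rose from 226 ± 28.6 to 306 ± 26.1 FPKM (SD, n = 4 each), a log2 change of 0.44 ± 0.11 (SE; limma adjusted p = 0.00824). Its log2 change was 0.66 with quantile normalization. Sqstm1 was called in 17 of 18 alternative settings, the exception being the 5 libraries with high Rn45s alone (log2 change 0.42, adjusted p 0.0561). Optn (chr2:5020642-5063938), which encodes optineurin, a receptor that acts in mitophagy with Parkin, stood at 51.4, 55.4, 48.6 and 45.5 FPKM in cre_negative against 38.0, 38.5, 38.0 and 30.6 FPKM in cre_positive libraries. Every cre_positive library was lower, with cre_positive 4 the lowest. The means were 50.2 ± 4.21 and 36.3 ± 3.78 FPKM (SD, n = 4 each). Optn fell by 0.46 ± 0.0957 on the log2 scale (SE; limma adjusted p = 0.00344), and without cre_positive 4 the call stood.

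The call of Optn was lost on the fixed-sum scale, with a log2 change of -0.15 and an adjusted p of 0.164. Relative to Sqstm1 the difference did not depend on scaling. The ratio of Sqstm1 to Optn within libraries was 4.42, 4.59, 3.84 and 5.21 in cre_negative and 7.04, 8.09, 8.62 and 10.3 in cre_positive libraries, with no overlap. Nbr1, a receptor related to p62, was at 63.4 ± 2.78 and 65.6 ± 3.52 FPKM (SD, n = 4 each), with a log2 change of 0.05 (limma adjusted p = 0.621). Nbr1 was called higher on the fixed-sum scale, at 0.36 (limma adjusted p 9.85e-04). The ratio of Sqstm1 to Nbr1 was 3.14 to 3.99 in cre_negative and 4.13 to 5.08 in cre_positive libraries.

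Among the mitophagy genes Pink1 was called lower on the deposited scale, and 0 were called higher by limma (1 higher and 1 lower at an unadjusted p under 0.05). On the fixed-sum scale 3 were called higher and 0 lower, beside 46.7% and 8.65% of all genes tested. The 3 were Park2 (log2 change 0.47, limma adjusted p 8.33e-04), Bnip3 (0.66, 0.00272) and Bnip3l (0.44, 0.00144). Pink1 (chr4:138313410-138326296), the kinase that builds up on damaged mitochondria, stood at 305, 326, 275 and 297 FPKM in cre_negative against 205, 236, 224 and 227 FPKM in cre_positive libraries. All 4 cre_positive libraries were below all 4 cre_negative libraries. It fell from 301 ± 21.4 to 223 ± 12.8 FPKM (SD, n = 4 each), a log2 change of -0.43 ± 0.0792 (SE; limma adjusted p = 0.00177). Of the 18 alternative settings only scaling to a fixed sum took the call away (log2 change -0.11, adjusted p 0.182). With quantile normalization the call stood at a smaller log2 change of -0.22 (adjusted p 0.0176). Park2, the symbol used in the table for Parkin, stood at 7.7, 8.35, 7.18 and 8.39 FPKM in cre_negative against 8.32, 9.47, 8.9 and 9.92 FPKM in cre_positive libraries. The groups overlapped at their edges, with a log2 change of 0.19 ± 0.0847 (SE; limma adjusted p = 0.104).

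The ratio of Pink1 to Park2 within libraries was 39.6, 39.1, 38.3 and 35.4 in cre_negative and 24.7, 24.9, 25.2 and 22.9 in cre_positive libraries, a gap far wider than the spread within either group. Bnip3, a mitophagy receptor of the outer membrane, stood at 135, 141, 86.5 and 129 FPKM in cre_negative against 169, 180, 140 and 132 FPKM in cre_positive libraries. The spread within groups was wide, and the log2 change was 0.35 ± 0.16 (SE; limma adjusted p = 0.112). Its value was 0.60 among high-Rn45s and -0.05 among low-Rn45s libraries. Bnip3l, also called NIX, stood at 27.9, 25.4, 27.9 and 27.0 FPKM in cre_negative against 31.2, 32.6, 29.2 and 26.5 FPKM in cre_positive libraries. Only cre_positive 4 lay within the cre_negative range, and the log2 change was 0.13 ± 0.0808 (SE; limma adjusted p = 0.219). Fundc1, a receptor that responds to low oxygen, was at 14.2 ± 0.254 and 12.9 ± 1.07 FPKM (SD, n = 4 each; log2 change -0.13, limma adjusted p 0.197).

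**Figure D4:**
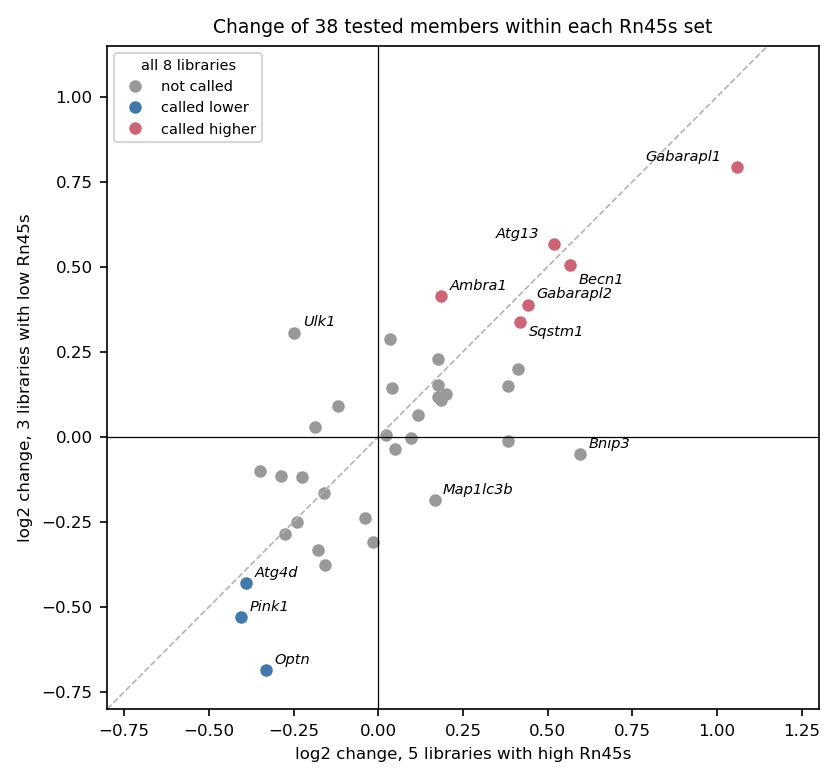
Log2 change of the 38 tested members among the 5 libraries with high Rn45s (horizontal) and the 3 libraries with low Rn45s (vertical), coloured by the call over all 8 libraries, with a dashed line of equality. The 9 called members keep their sign on both axes, while Ulk1, Map1lc3b and Bnip3, among others, change sign between the axes.

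All 9 called members had the same sign within both Rn45s sets, which share no library, although the low set holds 1 cre_negative library and the calls rest on the same 8 libraries. For Atg13 the values were 0.52 and 0.57 in the high and low sets, for Becn1 0.57 and 0.50, for Pink1 -0.40 and -0.53 and for Optn -0.33 and -0.68. With the Rn45s set as a term in the model, 8 members were called higher and 7 lower, beside 21.3% and 21.3% of all genes. Single libraries stood out over many members. The library cre_positive 1 was the lowest of its group for 23 of 39 members, and cre_negative 3 for 17, while cre_negative 2 was the highest for 17. Both cre_positive 1 and cre_negative 3 also had the lowest FPKM sum over all genes in their groups, at 460601 and 545102. The matching shares over all genes were not counted, so these counts may not be particular to the members. Without cre_positive 1, 9 members were called higher and 5 lower of 38, beside 18.9% and 18.0% of all genes.

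Cell type markers differed between the groups in the bulk lysate. Beside the counts below, 19.7% of all genes tested were called higher and 19.4% lower, or 46.7% and 8.65% on the fixed-sum scale. Of 10 cardiomyocyte markers 7 fell and 0 rose by limma (7 and 0 at an unadjusted p under 0.05). Of 10 fibroblast markers 7 rose and 1 fell, with summed levels of 682 to 808 FPKM in cre_negative against 1063 to 1230 FPKM in cre_positive libraries. Of 8 smooth muscle and pericyte markers 4 rose and 1 fell, of 10 endothelial markers 1 rose and 3 fell, and of 9 tested macrophage markers 0 rose and 6 fell (0 and 7 at an unadjusted p under 0.05). Smooth muscle and pericyte markers summed to 467 to 610 and 937 to 1386 FPKM, endothelial markers to 435 to 502 and 371 to 441 FPKM, and macrophage markers to 302 to 396 and 197 to 278 FPKM. Lymphocyte markers were near 0, at 4.00 to 9.64 and 3.56 to 4.91 FPKM summed over 7 genes. None of 2 tested lymphocyte and 5 tested erythroid markers was called by limma (0 at an unadjusted p under 0.05), and 1 of 6 atrial markers rose. Erythroid markers summed to 944 to 2802 and 1183 to 1589 FPKM, and atrial markers, Nppa among them, to 517 to 721 and 2664 to 4661 FPKM. The atrial sum does not describe the whole list, in which 3 markers had a positive and 3 a negative log2 change (median 0.17). On the fixed-sum scale 2 cardiomyocyte markers were called higher and 7 lower, 9 and 1 of fibroblasts, 5 and 0 of smooth muscle and pericytes, 3 and 1 of endothelium, 0 and 3 of macrophages and 2 and 0 of the atrium by limma (0 and 4 for macrophages at an unadjusted p under 0.05). The part of cell makeup in the member values was not tested.

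Genes that act beside the members in mitophagy changed in both directions. Of 17 tested other cargo and mitophagy factors, 3 rose and 9 fell, with a median log2 change of -0.25. Over all genes tested 19.7% were called higher and 19.4% lower, or 46.7% and 8.65% on the fixed-sum scale. On the fixed-sum scale 6 were called higher and 3 lower, with a median of 0.06. Phb2, an inner membrane mitophagy receptor, stood at 160 ± 17.9 and 89.2 ± 5.77 FPKM, Vdac1, the outer membrane channel that Parkin modifies, at 632 ± 33.3 and 365 ± 21.1 FPKM, and Mfn2, a fusion protein that PINK1 and Parkin target, at 177 ± 21 and 114 ± 13.4 FPKM (SD, n = 4 each). Their log2 changes were -0.83, -0.79 and -0.62 (limma adjusted p 6.48e-05, 2.31e-05 and 0.00118). Rnf41, a ubiquitin ligase that acts on Parkin, rose from 5.38 ± 0.921 to 8.75 ± 1.00 FPKM (log2 change 0.62, limma adjusted p 0.00244). These 4 genes were called in all 18 alternative settings. Calcoco2, which encodes NDP52, was listed at the lowest value of the table in every library.

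In the list of 13 other autophagosome formation genes 5 rose and 2 fell, with a median log2 change of 0.07. Over all genes tested 19.7% were called higher and 19.4% lower, or 46.7% and 8.65% on the fixed-sum scale. On the fixed-sum scale 8 were called higher and 0 lower by limma (9 and 1 at an unadjusted p under 0.05), with a median of 0.37. Rubcn, an inhibitor of the Beclin 1 complex that the table lists as 1700021K19Rik, rose from 11.4 to 15.9 FPKM (log2 change 0.45), and Uvrag, a Beclin 1 partner, from 9.59 to 11.7 FPKM (log2 change 0.26). Tmem41b, which encodes a lipid scramblase of the endoplasmic reticulum, fell from 17.2 to 11.9 FPKM (log2 change -0.50), and Sh3glb1, a partner of UVRAG, from 108 to 88.7 FPKM (log2 change -0.28). The calls of both were lost on the fixed-sum scale, at -0.20 and 0.03. Of 14 fusion genes 5 rose (Lamp2, Vamp8, Vps11, Plekhm1 and Vps39) and 0 fell by limma (6 and 0 at an unadjusted p under 0.05), with a median of 0.17. That is 35.7% called, beside 39.2% of all genes, and on the fixed-sum scale 12 were called higher and 0 lower by limma (14 and 0 at an unadjusted p under 0.05), with a median of 0.48. The named genes of these 2 lists were chosen after their values were seen.

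The upstream kinases and factors did not share 1 direction. Beside the counts of this paragraph, 19.7% of all genes tested were called higher and 19.4% lower. On the fixed-sum scale these shares were 46.7% and 8.65%. Among 6 AMPK subunits 3 rose and 1 fell. Prkaa2, the main catalytic subunit of muscle, stood at 47.0, 39.9, 56.7 and 42.0 FPKM in cre_negative against 22.0, 25.2, 23.3 and 23.8 FPKM in cre_positive libraries, with no overlap and a log2 change of -0.94 (limma adjusted p 7.71e-05). Prkag2, a regulatory subunit, went the other way, from 8.34 ± 0.996 to 16.4 ± 1.6 FPKM (log2 change 0.90, limma adjusted p 6.69e-05). Of 16 genes of mTORC1 and its regulators 1 rose and 4 fell (6 and 1 on the fixed-sum scale), led by Sesn1, an amino acid sensor that restrains mTORC1, which fell from 65.6 ± 6.35 to 40.8 ± 3.72 FPKM (log2 change -0.67, limma adjusted p 0.000294). Of 12 transcription factors known to act on autophagy genes 2 rose and 2 fell (6 and 0 on the fixed-sum scale by limma). Atf4, of the integrated stress response, rose from 54.6 ± 2.37 to 79.8 ± 4.05 FPKM (log2 change 0.54, limma adjusted p 0.000163). Tfeb and Tfe3, the regulators of lysosomal and autophagy genes, had log2 changes of -0.03 and 0.19 and were not called.

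The pattern of Gabarapl1 over the 8 libraries was shared by many genes outside the pathway. The highest Pearson r of log2(FPKM + 1), among 11684 genes, were those of Mum1l1 (0.996), Vwa5a (0.995), Ptprn (0.995), Rexo2 (0.995) and Abcg2 (0.994). An r of 0.95 or more was reached by 526 genes and one of -0.95 or less by 408. The 8 points fall into 2 groups and share their libraries and depth, and r is given as a description. Of the other members 1, Becn1, reached an r of 0.9.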

How the data were processed

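RNA was isolated with a Monarch kit and made into stranded total RNA libraries after ribosomal depletion, per the labels' protocols. The authors deposited 1 FPKM value per gene and library. The submitters' processing notes name Cufflinks, Bowtie2 2.2.6 and the build mm10. No source used here gives the annotation, strand setting or filters. The lowest value is 0.01. In 6 cells of 3 genes a word replaces the number, and these were treated as missing. Loci are those of the table, moved to count from 1.

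Groups come from the genotype label. Limma 3.58.1 in R 4.3.3 (lmFit, eBayes with trend) was run on log2(FPKM + 1), without covariates, over all genes whose mean was 1 FPKM or more. The code was tested on simulated data. Exact permutation tests used all 70 assignments. Library depth was estimated from the FPKM value of a single fragment in 3664 genes with 1 transcript. A 2 kb transcript at 1 FPKM stands for 8.97 to 47.1 fragments, and a count of 0 allows up to 3 fragments, or 0.0637 to 0.334 FPKM. These limits cover counting error only.

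The members, the role groups, the 6 related lists, the 8 marker lists and the rule for named genes were chosen with earlier results of these data known. The rule gives in full each called member with an absolute log2 change of at least 0.5, the most abundant member of each role group and Sqstm1, Map1lc3b, Becn1, Ulk1, Pink1, Park2, Bnip3 and Bnip3l, then up to 4 called genes past 0.5 of each related list and the 5 genes most correlated with the leading member. The full values of Gabarapl2, Ambra1, Optn and Atg4d were added after their values were seen. Alternatives were another pseudocount (0.1), no filter, array weights, fixed-sum and quantile scaling, an Rn45s term, each Rn45s set alone, a replicate block and leaving out each library. Averaging cre_negative 1 and 2 was added after seeing the data. Same-numbered libraries of the groups did not deviate together (r -0.0776 to -0.162), so the numbers were not taken to pair samples.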

Additional observations from a re-analysis of the deposited data

Results flagged for a closer look

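In 2 of 78 groups of 4 libraries checked, 1 library stood apart from the other 3 by Dixon's criterion for the gap over the range, where chance flags about 1 group in 20. Atg14 was at 3.64 FPKM in cre_negative 3 and at 4.36 to 4.46 FPKM in the other cre_negative libraries, a gap of 0.878 of the range. Optn was at 30.6 FPKM in cre_positive 4 and at 38.0 to 38.5 FPKM in the other cre_positive libraries, a gap of 0.932 of the range.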

How the results depend on the processing

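On the deposited scale 6 members were called higher and 3 lower. With array weights the counts were 11 and 7, beside 2945 and 2817 for all genes, and with scaling to a fixed sum 21 and 0, for all genes 5458 higher and 1011 lower, with a member median of 0.374 in place of 0.0814. With an Rn45s term 7 members were called lower, beside 21.3% of all genes. Leaving out 1 library gave 5 to 9 members higher and 2 to 5 lower, the most without cre_positive 1. With the replicate block the counts were 5 and 2, and 1963 and 1899 for all genes, and the calls of Ambra1 (adjusted p 0.068) and Atg4d (adjusted p 0.0865) were lost. With cre_negative 1 and 2 averaged, an alternative chosen after seeing the data, 6 members were called higher and 3 lower, but Ambra1 (adjusted p 0.053) and Atg4d (adjusted p 0.0815) lost the call and Map1lc3a (adjusted p 0.0324) and Rb1cc1 (adjusted p 0.0329) gained it. Of 162 values of the 9 called members under the 18 alternatives, 140 kept their direction and call and 22 kept the direction only. Signs turned for uncalled members. Scaling to a fixed sum turned 13 of 17 negative log2 changes, to 0.0877 for Atg12, 0.0645 for Rb1cc1, 0.222 for Ulk1, 0.218 for Wipi1, 0.0547 for Atg10, 0.106 for Atg14, 0.121 for Atg16l1, 0.0958 for Atg2a, 0.247 for Atg2b, 0.224 for Atg4a, 0.0668 for Atg5, 0.119 for Atg9a and 0.161 for Fundc1. The low-Rn45s libraries gave -0.0513 for Bnip3, -0.187 for Map1lc3b, -0.0109 for Gabarap, -0.00277 for Nbr1, 0.306 for Ulk1, 0.0283 for Wipi1 and 0.0897 for Atg2b. Leaving out 1 library gave -0.00678 to 0.171 for Map1lc3b and -0.170 to 0.0112 for Ulk1, with the sign turned without cre_negative 3. The cause was not tested. Total counts are not part of the table, so depth is an estimate, and it limits weakly covered members more than Gabarapl1 (691 to 5890 estimated fragments per library). Among these were Atg9b (10 to 54), Atg4c (33 to 152), Atg16l2 (44 to 373) and Atg14 (74 to 319).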
